A study of Mus musculus with 8 samples.

Results

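Ccr9 and 5 of its neighbours on mouse chromosome 9 (Limd1, Sacm1l, Lztfl1, Fyco1 and Cxcr6) were followed through every library of the series, out of 19805 gene symbols listed in its count tables. The question was whether the whole locus rises with Ccr9 when CD8 T cells are cultured with group 2 innate lymphoid cells (ILC2s), or single genes only. The genes were taken by name and by position next to Ccr9, and were proposed with their co-culture changes in these tables already known. They were thus selected on the measured CPM of the same libraries, and their own changes are described without a test. The flanking genes, taken by position alone, were tested. The gene lists that follow were tested too, but were chosen with earlier results of these data known. Their p-values and shares called carry that selection, and the shares are set beside those of all genes as description only.

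The study sequenced RNA from ILC2s of wild-type mouse lung and CD8 T cells of wild-type mouse spleen, all primary cells. ILC2s are tissue-resident lymphocytes that carry no antigen receptor and make type 2 cytokines. CD8 T cells and ILC2s were kept together for 3 days, mixed 5 to 1, or each was cultured separately and labelled untreated, and the cells were then sorted by flow cytometry. Each of the 4 groups had 2 libraries. The age of the mice, the culture additives and whether the replicates came from separate animals or cultures are not given, and the spread behind each p-value, that between the libraries of a group, may be technical.

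Ccr9 is a chemokine receptor for Ccl25, a ligand made in the small intestine and thymus. On T cells it is known as a gut-homing receptor that is induced, together with the integrin chains Itga4 and Itgb7, by retinoic acid during activation. The genes beside it have varied functions. Lztfl1 is a leucine zipper protein that binds the BBSome, a cargo adaptor of the primary cilium, and has been described in T cells as inducible by retinoic acid. Cxcr6 is the receptor of the membrane-bound chemokine Cxcl16 and is carried by many tissue-resident T cells and innate lymphoid cells. Fyco1 links late endosomes and autophagosomes that carry Rab7 to kinesin motors. Sacm1l is a lipid phosphatase of the endoplasmic reticulum and Golgi that removes phosphatidylinositol 4-phosphate. Limd1 is a LIM domain scaffold of the Ajuba and zyxin family.

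The 6 genes lay in 373.2 kb of chromosome 9, from 123478661 to 123851899 (GRCm38.p6, the assembly of the build mm10 named for these files). In map order they were Limd1 (123478661 to 123521552, plus strand), Sacm1l (123529753 to 123592600, plus), Lztfl1 (123694404 to 123717625, minus), Ccr9 (123767211 to 123783457, plus) and Fyco1 (123789500 to 123851899, minus). Cxcr6 (123806477 to 123811754, plus) sat inside the Fyco1 gene on the opposite strand and shared 0 exonic bases with it in the GENCODE annotation. Lztfl1 and Ccr9 were arranged head to head, with 49.6 kb between their 5′ ends. Ccr9 ended 6.04 kb from the 3′ end of Fyco1. A Ccr9 transcript in GENCODE begins at 123678439 and spans the whole of Lztfl1 in an intron, and no Ccr9 transcript shared an exonic base with Lztfl1. The gene Gm17200 shared 269 exonic bases with Ccr9 and 490 with Lztfl1. The annotation behind the deposited counts is not given, so which of these exons were counted is not known.

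Other overlaps could mix reads, because the strand setting of the counting is not given. The antisense gene AC165425.1 covered 1932 bases (18.8%) of the Ccr9 exons, and Slc6a20b covered 1800 bases (48.2%) of those of Sacm1l. The long noncoding RNA Gm17021 (123764707 to 123773407 in RefSeq) overlapped the first part of Ccr9.

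The promoter windows of Ccr9 and Lztfl1 are shown because their co-culture change in CD8 T cells was the largest of the set, and that of Cxcr6 because it is a nearby chemokine receptor with a small change. They are RefSeq windows of GRCm38.p6, from 250 bases before to 50 bases after the annotated start. Capitals mark each match, on either strand, to the core letters of a few well-known motifs. For factors of T cell activation the letters were TTTCC for NFAT and, as a palindrome, TGANTCA for AP-1. For lymphoid lineage factors they were TGTGGT for the RUNX family, CTTTGA for the TCF and LEF family, AGATAA for the GATA family and CCGGAAG for the ETS family. The element core of nuclear receptors, to which retinoic acid receptors belong, was searched as AGGTCA. The TATA box was searched as TATAAA. No marked matches overlap. The first window is chr9:123766961-123767260 on the plus strand, the second chr9:123717576-123717875 on the minus strand and the third chr9:123806227-123806526 on the plus strand.
Ccr9: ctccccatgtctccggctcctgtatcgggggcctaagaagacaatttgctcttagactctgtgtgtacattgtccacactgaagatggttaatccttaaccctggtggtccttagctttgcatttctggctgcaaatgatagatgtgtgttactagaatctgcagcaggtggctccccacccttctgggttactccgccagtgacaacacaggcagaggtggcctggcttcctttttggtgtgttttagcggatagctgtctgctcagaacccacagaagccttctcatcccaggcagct
Lztfl1: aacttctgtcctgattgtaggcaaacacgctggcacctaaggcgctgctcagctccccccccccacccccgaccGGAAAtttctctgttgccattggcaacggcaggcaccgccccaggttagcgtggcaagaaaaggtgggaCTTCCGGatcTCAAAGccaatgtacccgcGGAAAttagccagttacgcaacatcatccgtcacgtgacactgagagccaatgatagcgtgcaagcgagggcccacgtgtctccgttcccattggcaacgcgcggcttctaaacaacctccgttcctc
Cxcr6: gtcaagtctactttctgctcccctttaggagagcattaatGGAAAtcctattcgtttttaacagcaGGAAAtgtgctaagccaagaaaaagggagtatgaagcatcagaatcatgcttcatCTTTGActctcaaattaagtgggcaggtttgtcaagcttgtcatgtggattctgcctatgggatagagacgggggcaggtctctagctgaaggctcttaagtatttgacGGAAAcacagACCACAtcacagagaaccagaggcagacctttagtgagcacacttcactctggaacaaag

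The Ccr9 window held 0 matches. The Lztfl1 window held 4, all as the reverse complement: an ETS match starting 107 bases before the annotated start, a TCF/LEF match 97 bases before it, and NFAT matches 176 and 78 bases before it. The Cxcr6 window held 5 matches, of which 3 were to NFAT, 1 to RUNX and 1 to TCF/LEF. Such matches are common: of 32851 mouse promoter windows of this length, 61.3% held TTTCC, 16.8% TGTGGT, 16.0% CTTTGA and 8.86% CCGGAAG. The remaining motifs had no match in these windows, and over all windows 16.3% held AGGTCA, 13.6% TATAAA, 11.2% AGATAA and 7.81% TGANTCA. These are letter matches in short windows and say nothing of binding.

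The windows also split by CpG content. Lztfl1 had 21 CpG dinucleotides and 57.7% G+C, Sacm1l 27 and 61.7%, and the windows of Fyco1 25 and 30, against a median of 7 CpG and 52.7% over all windows. Ccr9 had 4 CpG and 51.3% G+C, and Cxcr6 3 and 44.3%. Of the 5 genes with a window here, the chemokine receptor genes had the fewest CpG, and the Limd1 window was not used here.

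Library totals ran from 48072595 to 67076905 reads. CD8 T cell markers summed to 4896 to 6751 CPM (read counts scaled to the library total) in the CD8 libraries, with Cd8a and Cd3e present in all of them. NK cell markers there summed to 280 to 337 CPM alone and 566 to 589 co-cultured, mostly Klrk1. Stroma and epithelium markers summed to 53.4 to 57.0 CPM alone and 165 to 169 co-cultured, mostly Pecam1. Cpa3 had 11.4 and 8.66 CPM alone and 0.0151 and 0.0298 co-cultured, and H2-Aa 10.6 and 8.48 alone and 0.166 and 0.149 co-cultured. The part of other cells in the CD8 levels was not tested. ILC2 markers (14 of 15 listed, all but Ptgdr2) summed to 3749 to 3781 CPM in the ILC2 libraries labelled alone and 8711 to 9093 CPM in those labelled co-cultured. The ILC2 libraries labelled alone also carried markers of other cells: stroma and epithelium at 4771 to 5110 CPM against 240 to 252 in those labelled co-cultured, monocytes and macrophages at 313 to 319 against 17.0 to 21.1, NK cells at 159.9 to 186 against 9.09 to 9.90, and CD8 T cells at 1509 to 1567 against 172 to 202. CD8 markers stood in them at a median of 30.8% of their level in CD8 T cells labelled alone. For this reason the groups are called by their labels. In bulk RNA, fewer cells of a type and less RNA per cell cannot be told apart. The tables list no gene with a count of 0, so a gene missing from a table (for example C1qa in both) had no value here.

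In CD8 T cells labelled co-cultured, Ccr9 and Lztfl1 were far higher than in those labelled alone, and the 4 genes around them were higher by at most about 2.2 times. Ccr9 had 1.86 and 1.21 CPM alone (98 and 69 reads) and 302.7 and 298.4 CPM co-cultured (20029 and 20018 reads). The receptor went from a trace to a well-expressed gene in both libraries, and the ratio of mean CPM was 196, a fitted log2 change of 7.54 ± 0.133 (SE, n = 2 per group).

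Lztfl1 stood at 32.6 and 32.3 CPM alone and at 341 and 351 CPM co-cultured. It was already expressed in cells kept alone, and both co-cultured libraries were about 10.7 times higher, a log2 change of 3.34 ± 0.0752. Per kilobase of exon, Ccr9 and Lztfl1 ended at a similar level, 29.3 ± 0.293 and 31.1 ± 0.617 CPM per kb (SD, n = 2), after starting at 0.150 ± 0.0449 and 2.91 ± 0.0221. The length used was the union of exons over all GENCODE transcripts of each gene (10.26 and 11.15 kb). Single transcripts are shorter, such as Ccr9-201 with 2620 bases and Lztfl1-201 with 4070. The levels per kb, and their likeness, depend on the length used.

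The chemokine receptor on the other side of Ccr9 differed far less. Cxcr6 had 126 and 162 CPM alone and 267 and 244 CPM co-cultured, a log2 change of 0.75 ± 0.105. Its replicates labelled alone differed more, relative to their mean, than those of Lztfl1, Fyco1, Sacm1l and Limd1, yet the groups did not overlap. Its host gene Fyco1 had 15.4 and 16.1 CPM alone and 31.3 and 37.9 CPM co-cultured, a log2 change of 1.06 ± 0.11. The fitted change of Cxcr6 lay between that of its host gene and that of Sacm1l (0.53 ± 0.0751), which lies beyond Lztfl1. A similar size was thus not particular to the nested pair.

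On the Lztfl1 side, the lipid phosphatase Sacm1l had 141 and 153 CPM alone and 233 and 216 CPM co-cultured, a log2 change of 0.53 ± 0.0751. The scaffold Limd1 had 88.1 and 89.3 CPM alone and 118 and 127 CPM co-cultured, a log2 change of 0.39 ± 0.0736. Both genes were broadly expressed in every library and differed modestly.

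In all 6 genes, both co-cultured CD8 libraries were above both libraries alone, where 44.1% of the 15948 genes tested showed that order and edgeR called 30.2% higher. With 2 libraries a group, this order is common, and since the genes were proposed on this comparison nothing is read from the count. The sizes separate the set. By log2 rise, Ccr9 ranked 2 and Lztfl1 43 among the genes tested, while Fyco1 ranked 1459, Cxcr6 2548, Sacm1l 3819 and Limd1 4824. A log2 rise of at least 3 was seen in 0.426% of genes.

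**Figure D1:**
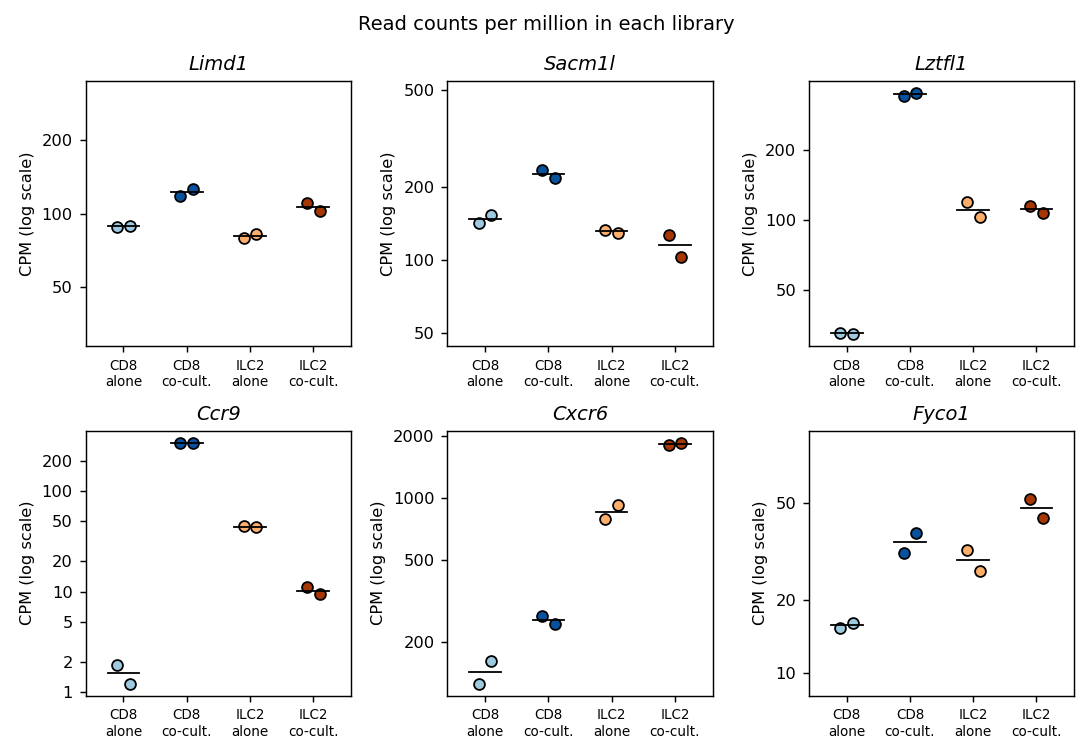
CPM (log axis, range set per gene) of the 6 genes in map order, in each of the 8 libraries, as points, with the group mean as a line. Ccr9 and Lztfl1 in CD8 T cells labelled co-cultured stand far above the same cells labelled alone, while in ILC2s Ccr9 is lower in the co-cultured libraries and Lztfl1 overlaps.

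In ILC2s the locus showed another pattern. Ccr9 had 44.4 and 43.7 CPM in the libraries labelled alone and 11.0 and 9.40 CPM in those labelled co-cultured, a log2 change of -1.89 ± 0.148. The receptor was thus lower in the co-cultured ILC2 libraries, opposite to CD8 T cells, and the groups did not overlap. Lztfl1 had 118.8 and 102.3 CPM alone and 114.9 and 106.9 CPM co-cultured, a log2 change of 0.22 ± 0.128, and the groups overlapped. Ccr9 and Lztfl1, the pair with the large rises in CD8 T cells, therefore did not move as a pair in ILC2s.

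Cxcr6 was the most abundant of the 6 genes in ILC2s. It had 794 and 925 CPM alone and 1807 and 1858 CPM co-cultured, a log2 change of 1.31 ± 0.118. Fyco1, around it, had 32.2 and 26.3 CPM alone and 52.2 and 43.3 CPM co-cultured, a log2 change of 0.92 ± 0.155. As in CD8 T cells, the nested receptor and its host gene both had higher values after co-culture.

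Limd1 had 79.2 and 82.9 CPM alone and 111 and 102 CPM co-cultured, a log2 change of 0.61 ± 0.124. Sacm1l had 133 and 128.5 CPM alone and 126.6 and 103 CPM co-cultured, with a fitted log2 change of 0.03 ± 0.139, so its CPM was lower while its fitted change was near 0. The fit scales libraries by trimmed means of M-values (TMM) and CPM does not. Both co-cultured libraries were above both libraries alone for 3 of the 6 genes, beside 33.8% of the 16739 genes tested in ILC2s, and below for 2, beside 49.6%.

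The ILC2 values depended on the scaling. Scaled to ILC2 marker genes instead of trimmed means, a setting added after the data were seen, the change was -3.33 for Ccr9 and -1.22 for Lztfl1, and the sign turned for Cxcr6 (-0.13), Fyco1 (-0.51) and Limd1 (-0.83). On that scale the median of all genes was -1.44, and of the 6 genes only Ccr9 lay below it. Of the ILC2 genes called, 48.0% were higher under trimmed means and 4.44% under the marker scaling. CD8 T cells labelled alone had less Ccr9 (1.53 CPM on average) than the ILC2 libraries labelled alone (44.0 CPM); the part of the other cells in the Ccr9 level there was not tested.

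Across the 4 groups, the order of mean CPM differed from gene to gene. Ccr9 was highest in co-cultured CD8 T cells (300.6 CPM), then in ILC2s alone (44.0), co-cultured ILC2s (10.2) and CD8 T cells alone (1.53), with no overlap between neighbours in that order. Lztfl1 followed the order co-cultured CD8 T cells (346), ILC2s (110.9 co-cultured and 110.6 alone, overlapping) and CD8 T cells alone (32.4). Cxcr6 was instead highest in ILC2s, at 1833 CPM co-cultured and 859.7 alone, against 255 and 143.8 in CD8 T cells.

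The other genes varied less. Fyco1 ran from 15.8 CPM in CD8 T cells alone to 47.7 in co-cultured ILC2s, and its values in co-cultured CD8 T cells (34.6) and ILC2s alone (29.3) overlapped. Sacm1l ran from 114.8 CPM in co-cultured ILC2s to 224.6 in co-cultured CD8 T cells, and Limd1 from 81.0 in ILC2s alone to 122.5 in co-cultured CD8 T cells, with no overlap between neighbouring groups for either gene. These levels are set across tables by library totals only.

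ILC2 RNA in the sorted CD8 T cells is measured by markers. In co-cultured CD8 T cells, 11 ILC2 markers stood at a median of 0.379% of their level in co-cultured ILC2s, from Il1rl1 at 0.0241% and Il5 at 0.0452% to Gata3 at 6.41%, Rora at 17.6% and Il7r at 49.2%. Gata3, Rora and Il7r are also expressed by T cells. Ccr9 there was at 2950% and Lztfl1 at 312% of the co-cultured ILC2 level, Cxcr6 at 13.9% and Ccr2 at 5.57%. Ccr9 and Lztfl1 thus had more CPM in co-cultured CD8 T cells than in co-cultured ILC2s. Cxcr6 was already at 143.8 CPM in CD8 T cells that had been kept alone. The part of carried-over RNA in the levels of these genes was not tested.

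RefSeq lists 44 further genes within 1 Mb of the start of Ccr9, taken by position alone, and 29 of them had counts in at least 1 table. In CD8 T cells 26 were tested. Of these, 10 rose, 6 fell and 10 were not called (edgeR quasi-likelihood test, adjusted p under 0.05), so 61.5% were called against 60.9% of all genes (30.2% higher and 30.7% lower). Their median log2 change was 0.21 against -0.01 for all genes. The share called within 1 Mb was thus near that of all genes. In ILC2s 28 were tested, 6 rose and 8 fell, so 50% were called against 66.3% of all genes (31.8% higher and 34.4% lower), with a median of -0.04. Within 500 kb, 9 were tested in CD8 T cells, of which 5 rose and 2 fell, with a median of 2.04. This is 77.8% called, above the share within 1 Mb and over all genes, so the comparison depended on the window. The genes that rose there include Gm17021, which overlaps Ccr9, and Ccr1, Ccr2 and Ccr3 of a receptor cluster. The median is the value of the scarce Ccr3. In ILC2s 10 were tested within 500 kb, of which 4 rose and 1 fell (50% called).

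The noncoding RNA that overlaps Ccr9 had the largest fold of the flanking genes. Gm17021 had 3 reads in each CD8 library labelled alone (0.0570 and 0.0526 CPM) and 19.0 and 20.5 CPM in those labelled co-cultured. From 6 reads against 2634, the ratio was 362, with a 95% exact interval of 166 to 986 for counting error only. Its locus overlaps the first part of Ccr9, and reads of the overlapping genes cannot be told apart without strand. The part of Ccr9 reads in this rise was not tested. In ILC2s Gm17021 was near 1 CPM in all libraries (1.76 and 1.28 alone, 1.16 and 0.686 co-cultured). It was not called there (log2 -0.50 ± 0.39, edgeR adjusted p = 0.28).

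Chemokine receptor genes on the Cxcr6 side, 195 to 335 kb beyond the start of Ccr9, rose in CD8 T cells. Ccr1, Ccr2 and Ccr3 encode receptors for inflammatory chemokines. Ccr2, a receptor for monocyte chemoattractants, had 2.49 and 3.28 CPM alone and 36.6 and 34.3 co-cultured (log2 3.53 ± 0.139, edgeR adjusted p = 1.3e-09). Ccr1 had 3.08 and 2.80 CPM alone and 15.9 and 13.0 co-cultured (log2 2.22 ± 0.154, edgeR adjusted p = 1.0e-07).

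Every one of these CD8 groups was separated. Ccr3 was scarce and rose from 0.437 and 0.280 to 1.51 and 1.60 CPM (log2 2.04 ± 0.327, edgeR adjusted p = 1.4e-04). Receptor genes of this cluster include close paralogs, and how reads shared between them were counted is not given. Xcr1, the receptor gene that lies between Fyco1 and this cluster, did not follow. It had 1.27 and 1.24 CPM alone and 1.30 and 0.954 co-cultured (log2 -0.24 ± 0.279, edgeR adjusted p = 0.48).

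Genes that fell in CD8 T cells lay beyond Limd1 and also inside the locus. Lars2, a mitochondrial leucyl-tRNA synthetase next to Limd1, had 808 and 906 CPM alone and 152 and 200.4 co-cultured (log2 -2.36 ± 0.117, edgeR adjusted p = 7.5e-09). Exosc7, a subunit of the RNA exosome, fell from 105.5 and 89.8 to 47.6 and 49.0 CPM (log2 -1.10 ± 0.0856, edgeR adjusted p = 2.6e-07). The pseudogene Gm10052, between Sacm1l and Lztfl1, fell from 158 and 144.0 to 78.4 and 84.2 CPM (log2 -0.97 ± 0.0769, edgeR adjusted p = 2.8e-07). A gene that fell thus lay between the modest Sacm1l and the strongly higher Lztfl1.

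Further genes of the interval changed in both directions. The zinc finger genes Zfp105 (log2 1.34) and Zfp445 (0.62) rose, and 1110059G10Rik (-0.65) and the kinesin Kif15 (-0.30) fell. The calls of Zkscan7 (0.43), Gm39469 (0.35), Zdhhc3 (0.25) and Tmem42 (-0.40) were lost under 7 of 11, 9 of 12, 1 of 12 and 4 of 12 alternative settings.

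**Figure D2:**
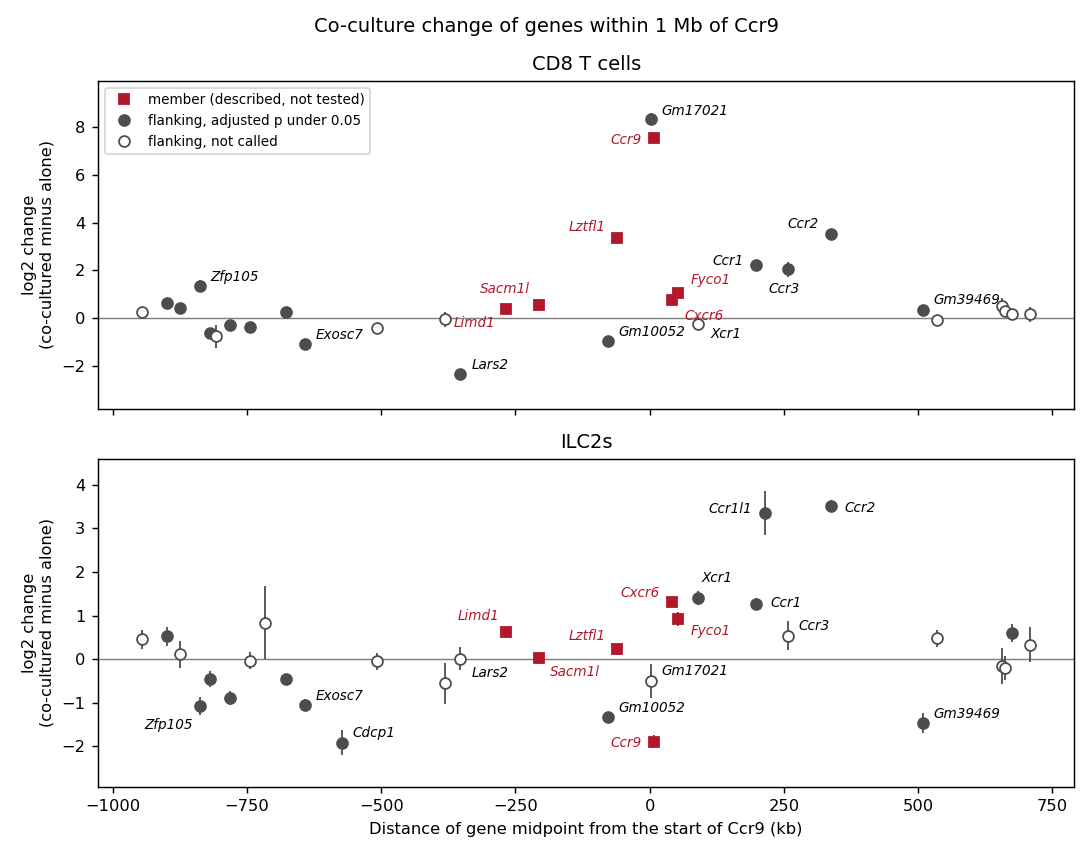
Fitted log2 change (co-cultured minus alone, bars are the SE) of each gene shown against the distance of its midpoint from the start of Ccr9 in kb, for CD8 T cells and ILC2s on separate axes. Red squares are the 6 described genes, filled circles flanking genes past an adjusted p of 0.05 and open circles those not called, and genes that barely move or fall lie between those that rise.

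In ILC2s the members of this cluster differed from each other. Ccr2 rose from 64.2 and 65.4 to 693 and 579 CPM (log2 3.51 ± 0.146, edgeR adjusted p = 3.0e-09). Ccr1 rose from 132 and 163 to 312 and 303 CPM (log2 1.27 ± 0.134, edgeR adjusted p = 6.3e-06). Xcr1 rose from 6.22 and 7.22 to 15.1 and 15.5 CPM (log2 1.40 ± 0.16, edgeR adjusted p = 1.3e-05). Ccr1l1, listed only in the ILC2 table, rose at trace level (log2 3.35 ± 0.511, edgeR adjusted p = 1.2e-04). Ccr3 had 1.10 and 1.62 CPM alone and 1.67 and 1.75 co-cultured and was not called (log2 0.54 ± 0.334, edgeR adjusted p = 0.17).

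The difference of the co-culture effect between the cell types was tested over all 8 libraries, and 11 of 27 flanking genes passed, against 53.6% of 15532 genes. For Ccr1 the effect in ILC2s was lower than in CD8 T cells (log2 difference -1.10 ± 0.19, edgeR adjusted p = 1.4e-04). For Ccr2 the difference was -0.18 ± 0.187 (edgeR adjusted p = 0.43) and did not pass. For Lars2 it was 2.21 ± 0.335 (edgeR adjusted p = 4.2e-05), but the ILC2 change of Lars2 rested on single libraries: its replicates were 138 and 274 CPM alone and 144 and 217 co-cultured, and the change was -0.40 without the first library alone and 0.59 without the second. Under the marker scaling the ILC2 sign of Xcr1 (-0.04) and Ccr1 (-0.17) turned, with values near 0, while their stated rises are relative to trimmed means.

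**Figure D3:**
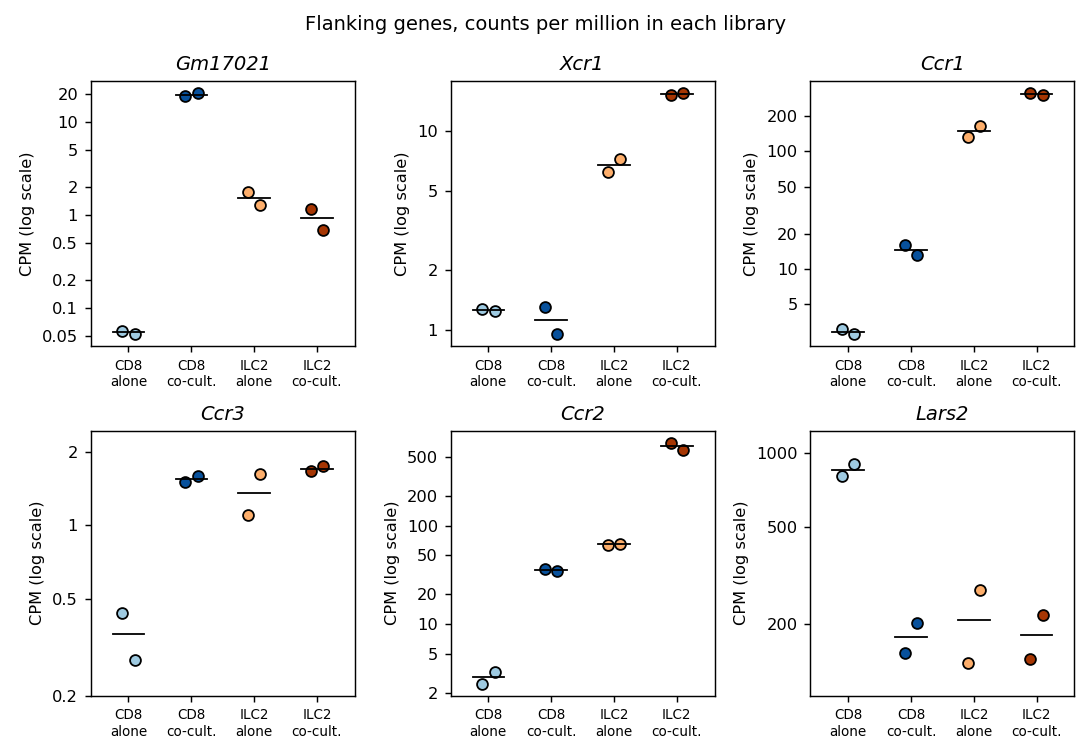
CPM (log axis) of the flanking genes Gm17021, Xcr1, Ccr1, Ccr3, Ccr2 and Lars2 in each library as points, with group means as lines. Ccr2 is higher after co-culture in both cell types, Xcr1 overlaps between the CD8 groups, and Lars2 is lower in co-cultured CD8 T cells.

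Across the genome, the list of other chemokine receptors included those flanking Ccr9. It also held S1pr1, a lipid receptor, which rose in both cell types (log2 1.18 in CD8 T cells and 0.57 in ILC2s). Of its 16 genes in CD8 T cells, 7 rose and 3 fell, with a median log2 change of 0.14. This is 62.5% called, near the 60.9% of all genes. In ILC2s 9 of 20 rose and 9 fell (90% called against 66.3% of all genes), the scavenging receptor Ackr3 among those that fell (15.1 and 18.9 CPM alone, 1.36 and 0.728 co-cultured, log2 -3.80 ± 0.276, edgeR adjusted p = 2.9e-07). Ccr7, the receptor for entry into lymph nodes, rose slightly in CD8 T cells (2076 and 2378 CPM alone, 3490 and 3211 co-cultured, log2 0.51 ± 0.0819) and fell in ILC2s (log2 -2.06). Ccr8 went the other way, from 62.0 and 60.0 to 10.05 and 11.0 CPM in CD8 T cells (log2 -2.62 ± 0.0918) and from 78.7 and 84.8 to 159.9 and 172 CPM in ILC2s (log2 1.23, -0.20 under the marker scaling). The falls of Ackr3 and Ccr7 in ILC2s stood beside those of stromal markers (4771 to 5110 CPM alone, 240 to 252 co-cultured) and CD8 T cell markers (1509 to 1567 CPM alone, 172 to 202 co-cultured), whose part was not tested. For Ccr7 and Ccr8 the edgeR adjusted p-values were 1.4e-04 and 5.0e-10 in CD8 T cells and 4.4e-08 and 3.0e-06 in ILC2s.

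The ligands were scarce in CD8 T cells. Ccl25, the ligand of Ccr9, had 2.45 and 2.01 CPM alone and 1.62 and 1.30 co-cultured (log2 -0.69 ± 0.238, edgeR adjusted p = 0.023, lost under 3 of 11 alternatives). Cxcl16, the ligand of Cxcr6, was under 1 CPM in every CD8 library. In ILC2s Cxcl16 fell from 259 and 265 to 1.20 and 1.04 CPM (log2 -7.65 ± 0.174, edgeR adjusted p = 4.1e-11), beside monocyte and macrophage markers that fell in 5 of 5 genes tested (of 10) from 313 to 319 down to 17.0 to 21.1 CPM and stromal markers that fell in 8 of 9 tested (of 12). The part of those cells in the Cxcl16 level was not tested. Of the 4 ligand and sheddase genes, 1 rose and 2 fell in CD8 T cells and 1 rose and 3 fell in ILC2s; the sheddase Adam17 was the gene that rose in both (log2 0.66 ± 0.0811 and 0.40 ± 0.156, edgeR adjusted p = 1.5e-05 and 0.04), with its ILC2 call lost under 5 of 13 alternatives (0.12 to 0.61 with 1 library left out) and a value of -1.04 under the marker scaling.

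Of the genes of retinoic acid signalling and gut homing, the set in which Ccr9 is usually placed, 13 of 21 rose in CD8 T cells, 3 fell and 5 were not called, with a median log2 change of 0.44 against -0.01 for all genes. Of the list 76.2% was thus called, against 60.9% of all genes (30.2% higher). The 3 that fell were Stra6 (log2 -3.54 ± 0.25), Rxra (-2.43 ± 0.42) and Rdh11 (-0.33 ± 0.0711). Their edgeR adjusted p-values were 1.2e-07, 2.5e-04 and 0.0013. Stra6 had 6.95 and 5.15 CPM alone, and Rxra was scarce, at 1.80 and 1.44 CPM alone. Tgm2, a transglutaminase known to respond to retinoic acid, rose from 54.7 and 52.8 to 763 and 787 CPM (log2 3.77 ± 0.0757, edgeR adjusted p = 5.9e-12). Itga4 rose from 15.7 and 14.2 to 71.8 and 72.7 CPM (log2 2.19 ± 0.0862, edgeR adjusted p = 1.3e-09), and Itgb7 from 375 and 385 to 1271 and 1240 CPM (log2 1.64 ± 0.0689, edgeR adjusted p = 2.0e-09). These integrin chains form the gut-homing integrin.

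The transcription regulators on the list moved as well. Hic1 had 18.6 and 18.4 CPM alone and 137 and 157 co-cultured (log2 2.91 ± 0.0898), Nrip1 55.5 and 60.8 alone and 427 and 496 co-cultured (log2 2.91 ± 0.0931), with edgeR adjusted p-values of 2.0e-10 and 2.4e-10. The receptor gene Rara rose less (log2 1.00 ± 0.104, edgeR adjusted p = 3.1e-06). Itgae, an integrin of intraepithelial T cells, rose from 20.8 and 16.9 to 98.3 and 112 CPM (log2 2.40 ± 0.106, edgeR adjusted p = 3.1e-09).

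In ILC2s the same list divided, with 9 of 24 rising, 10 falling and 5 not called (79.2% called against 66.3% of all genes). Itga4 (log2 2.44 ± 0.137), Itgb7 (1.51 ± 0.105) and Rara (2.57 ± 0.121) rose there too, while Tgm2 fell (-1.93 ± 0.135), as did Rdh10 (-3.30 ± 0.15) and Crabp2 (-7.88 ± 0.266). The edgeR adjusted p-values were 3.6e-08, 2.1e-07, 9.0e-09, 2.1e-07, 6.4e-09 and 5.5e-10. The difference between cell types did not pass for Itga4 (0.08 ± 0.15, edgeR adjusted p = 0.66), and for Tgm2 it was -5.86 ± 0.157 (edgeR adjusted p = 1.1e-13). Under the marker scaling Itga4 was at 1.00 and Rara at 1.14, while the call of Itgb7 was lost (0.074). Ccr9 and Tgm2 were lower in the co-cultured ILC2 libraries, as were 8 of 9 stromal and 9 of 10 CD8 T cell markers tested. The part of other cells in these levels was not tested.

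Genes of the BBSome, the complex that Lztfl1 binds, and of its trafficking partners were called in both directions. In CD8 T cells 19 were tested, and 6 of them rose, 6 fell and 7 were not called, with a median log2 change of -0.18 (63.2% called against 60.9% of all genes). Among subunits, Bbs9 (0.63 ± 0.0855), Ttc8 (0.60 ± 0.149) and Bbs2 (0.50 ± 0.135) rose, Bbip1 (-0.79 ± 0.109) fell, and Bbs4 (-0.01 ± 0.132) and Bbs5 (-0.18 ± 0.133) were not called. Bbs1 rose at about 1 to 2 CPM (1.34 ± 0.294). The membrane recruiter Arl6 (-0.51 ± 0.128) and Ift27 (-1.002 ± 0.1) fell, whereas Rab3ip (1.78 ± 0.0761) and the ciliary receptor Smo (1.76 ± 0.124) rose. The call of Bbs2 was lost under 1 of 12 alternatives. In ILC2s 1 of 18 rose (Bbs9, 1.77 ± 0.135) and 13 fell, 77.8% called against 66.3% of all genes (34.4% lower). Stromal and T cell markers fell in the same ILC2 libraries, and their part in these falls was not tested.

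The lists around the other neighbours gave mixed counts. For late endosome and autophagosome transport, to which Fyco1 belongs, 10 of 24 genes rose, 3 fell and 11 were not called in CD8 T cells, so 54.2% were called against 60.9% of all genes. Rab7, the partner of Fyco1, fell slightly (-0.32 ± 0.0684, edgeR adjusted p = 0.0013) and Uvrag rose (1.62 ± 0.0763, edgeR adjusted p = 5.0e-09). For phosphatidylinositol 4-phosphate turnover, the pathway of Sacm1l, 13 of 23 rose and 4 fell (73.9% called), with Efr3a, a scaffold of the plasma membrane lipid kinase, at 0.87 ± 0.0723 (edgeR adjusted p = 4.2e-07). For the zyxin and Ajuba family and Hippo kinases, the relatives of Limd1, 10 of 16 rose and 3 fell (81.2% called), with Zyx at 1.03 ± 0.0951 (edgeR adjusted p = 1.1e-06).

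For tissue residency and egress, a list that Cxcr6 is often set beside, 10 of 16 rose and 3 fell in CD8 T cells. This is 81.2% called against 60.9% of all genes. Itgae was among those that rose and Xcl1 (-1.51 ± 0.101, edgeR adjusted p = 7.9e-08) among those that fell. The list pools residency and egress genes, so its counts give no direction for residency. S1pr1 (1.18), Klf2 (0.50), Ccr7 (0.51) and S1pr5 (1.44, at trace level) rose as well. Rgs1 (-1.01) and Rgs2 (-0.77) were the others that fell. In ILC2s the counts that rose and fell were 9 and 6 of 24 for endosome transport, 13 and 3 of 23 for phosphatidylinositol 4-phosphate turnover, 8 and 12 of 21 for the zyxin list and 7 and 6 of 16 for residency. The shares called were 62.5%, 69.6%, 95.2% and 81.2% in that order, against 66.3% of all genes (31.8% higher and 34.4% lower). In the zyxin list Fblim1, an adapter at cell adhesions, fell from 59.5 and 65.1 to 0.0825 and 0.125 CPM (-8.99 ± 0.24, edgeR adjusted p = 1.2e-10) beside the fall of the stromal markers, whose part was not tested.

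**Figure D4:**
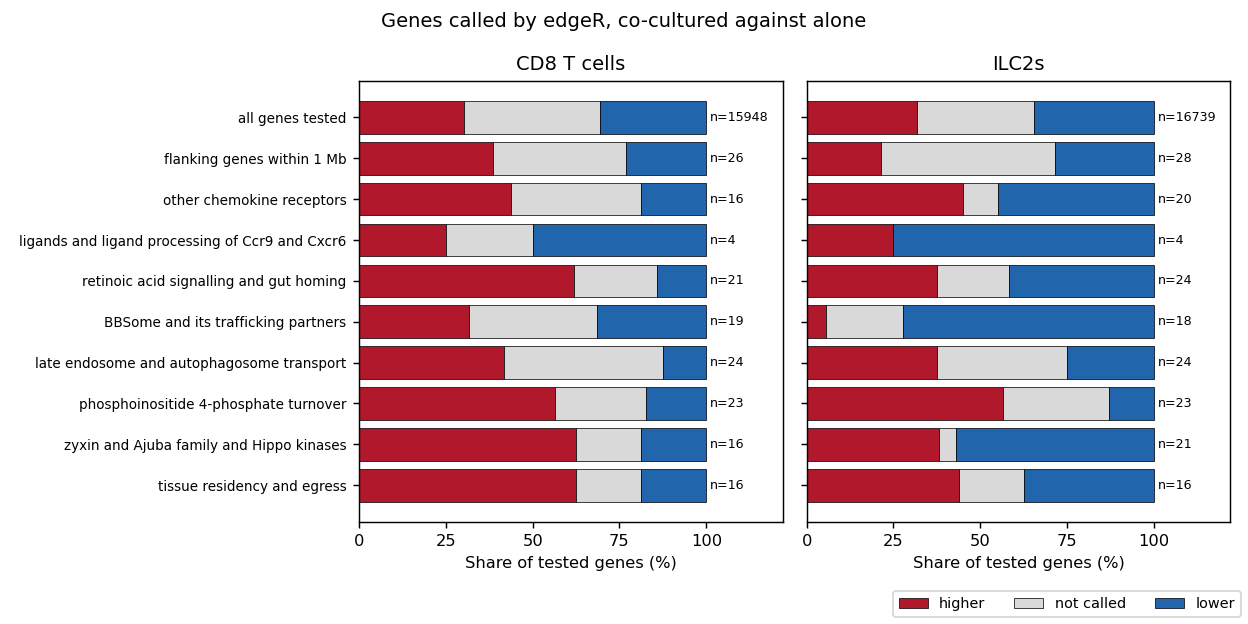
Share of tested genes (percent, axis from 0) that rose, were not called or fell in co-cultured against alone, for each gene list, the flanking genes and all genes, in CD8 T cells and ILC2s; n is the number tested. The flanking genes in CD8 T cells have 61.5% called, close to the 60.9% of all genes.

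The genes nearest to Ccr9 and to Lztfl1 in their CD8 pattern were picked by distance. Candidates were the 9257 genes whose log2 CPM averaged 3 or more over the 4 CD8 libraries. Among them, the smallest distances to Ccr9 (Euclidean, on log2 CPM centred per gene) were those of P2rx7 (2.77), Filip1 (2.80) and Osgin1 (3.03). All were well short of its change: P2rx7 had 5.58 and 3.31 CPM alone and 106.7 and 104.4 co-cultured. Lztfl1 had closer company in Kcnc1 (0.144), Tgfb3 (0.208) and Gzma (0.215), and Tgfb3 had 36.1 and 42.2 CPM alone and 370.4 and 400.1 co-cultured. In ILC2s these did not share 1 direction, since Tgfb3 was higher after co-culture (102 and 103 against 1053 and 933 CPM) and Gzma lower (381 and 400.4 against 112 and 140.4).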

How the data were processed

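The authors deposited whole-number read counts per gene symbol, 1 table for CD8 T cells (17642 genes) and 1 for ILC2s (18389 genes), each with 4 libraries. Per the labels' protocols, Trizol was used for RNA and a SMART-Seq v4 low-input kit made the libraries. The build mm10 and the tools StringTie 2.1.3b, HISAT2 2.1.0, Trimmomatic 0.38 and SAMtools 1.9 are named, per the submitters' processing notes. The sources used here do not give each tool's role, the annotation, the strand setting, filters or the treatment of reads shared by similar genes. The lowest deposited count was 1, so a gene with no read in a library of a table has no row there.

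Co-cultured libraries were compared with libraries alone within each cell type by the quasi-likelihood test of edgeR 4.0.16 (R 4.3.3), after filterByExpr and TMM scaling. P-values were adjusted over all genes tested by the Benjamini-Hochberg method, with 0.05 as the threshold. An interaction term over 8 libraries and the 15532 genes in both tables tested the difference between cell types. The SE is the log2 change divided by the square root of F. CPM is the count scaled to the library total. Alternatives used DESeq2 1.42.0, limma-voom (limma 3.58.1), other scalings, filters and windows, the replicate number as a block, and left-out libraries. The edgeR fit was tested on simulated data. The counts of replicates differed beyond sampling noise (chi-square of 12.5 to 25.9 per gene), with Pearson's r of log2 CPM across genes of 0.994 to 0.998, so each library counted as 1 replicate.

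Positions and promoter windows are RefSeq's for GRCm38.p6, and exons are from GENCODE M21. Symbols matched RefSeq for 95.7% of genes in each table. The values of 1 flanking gene, which is kept in the counts, are not reported here.

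The genes and lists were chosen with earlier results of these data known. Named are the 6 genes, flanking genes within 1 Mb, up to 3 genes per list and cell type with the largest change among those called with mean log2 CPM of at least 3 (only the first by size, or the first 2 for residency in CD8 T cells, in the endosome, phosphoinositide, zyxin and residency lists, shortened after their values were seen), known partners or ligands of the 6 genes, and the 3 genes nearest in pattern to Ccr9 and to Lztfl1. Also named are the 3 retinoic acid list genes that fell in CD8 T cells, and S1pr1. From the residency and egress list, Klf2, S1pr5, Rgs1 and Rgs2 are named too.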

Additional observations from a re-analysis of the deposited data

Results flagged for a closer look

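Ccr9 had opposite changes in the cell types: both co-cultured CD8 libraries were above both libraries alone (log2 7.54), and both co-cultured ILC2 libraries were below (log2 -1.89). The difference was not tested, because Ccr9 was chosen for its change.

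The other values are the ILC2 effect of co-culture minus the CD8 effect, on the log2 scale, where edgeR's interaction test passed at an adjusted p under 0.05. This held for 53.6% of all genes and for 26 of the 31 named list genes tested. Many of the named list genes were picked for a large change in a cell type, which favours a difference between cell types. Their share therefore cannot be judged against that of all genes. Among flanking genes the difference was below 0 for Gm17021 (-9.03), Zfp105 (-2.57), Gm39469 (-1.98), Ccr3 (-1.66), Ccr1 (-1.10), Zdhhc3 (-0.87), Kif15 (-0.75) and Gm10052 (-0.51). It was above 0 for Lars2 (2.21) and Xcr1 (1.48).

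Among chemokine receptors and ligands it was 3.69 for Ccr8, -2.72 for Ccr7, -2.02 for Ccl25, -5.91 for Cxcl16 and -0.54 for Adam10, the sheddase of Cxcl16. Among retinoic acid and gut homing genes it was -8.47 for Crabp2, -5.86 for Tgm2, -3.55 for Rdh10, -3.41 for Itgae, -3.25 for Hic1, -1.44 for Nrip1 and 1.42 for Rara. Among BBSome genes and partners it was -2.97 for Rab3ip, -2.45 for Smo, -2.34 for Ttc8, -1.81 for Arl6, -1.13 for Bbip1, -1.06 for Ift27, -0.82 for Bbs2, -0.82 for Bbs5 and 0.98 for Bbs9. Among the remaining lists it was -5.91 for Xcl1, 2.33 for Synj2, -1.59 for Zyx, -1.47 for Efr3a and -0.45 for Rab7. Markers of stroma, macrophages, NK cells and T cells were lower in the ILC2 libraries labelled co-cultured, and their part in these differences was not tested.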

How the results depend on the processing

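No alternative moved the counts of all genes called, or of the flanking genes that differed between cell types, by over 1.5 times. The list counts did not move by that much either, but were recounted only under other tools, filters, the block and left-out libraries. They were not recounted under other scalings or with all 8 libraries fitted together. These counts add genes that rose and genes that fell. Under the marker scaling 4.44% of the ILC2 genes called were higher, against 48.0% under trimmed means. The values that follow are log2 changes, co-cultured minus alone. In CD8 T cells, dropping the scaling beyond library totals gave 3.42 for Lztfl1, 0.61 for Sacm1l and 0.47 for Limd1, with the median of all genes at 0.08. In ILC2s it gave -2.11 for Ccr9, 0.0046 for Lztfl1, 1.09 for Cxcr6, 0.71 for Fyco1, -0.19 for Sacm1l and 0.40 for Limd1, with the median at -0.22. Fitting all 8 libraries together gave, in ILC2s, -2.05 for Ccr9, 0.067 for Lztfl1, 1.15 for Cxcr6, -0.12 for Sacm1l and 0.46 for Limd1. The sign of Sacm1l in ILC2s therefore depended on the scaling and the fit.

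Leaving out 1 library at a time gave, in CD8 T cells, 7.27 to 7.87 for Ccr9, 0.57 to 0.96 for Cxcr6 and 0.92 to 1.19 for Fyco1, the lowest and highest for Ccr9 and Cxcr6 coming without a library labelled alone. In ILC2s it gave -2.08 to -1.75 for Ccr9, 1.20 to 1.43 for Cxcr6, 0.71 to 1.09 for Fyco1, -0.20 to 0.20 for Sacm1l and 0.48 to 0.71 for Limd1. Lars2 in ILC2s turned to -0.40 without the first library labelled alone and was 0.59 without the second. A window of 500 kb holds fewer genes. It held 7 called flanking genes of 9 tested in CD8 T cells (77.8%, against 61.5% within 1 Mb). In ILC2s it held 5 of 10 tested (50%, the same share as within 1 Mb).

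Scaling the ILC2 libraries to ILC2 marker genes was added after seeing the data. It gave -3.33 for Ccr9, -1.22 for Lztfl1, -1.41 for Sacm1l, -0.13 for Cxcr6, -0.51 for Fyco1 and -0.83 for Limd1, and called 25 flanking genes, of which 2 were higher and 23 lower. Signs turned for Tcaim (-0.99), Zfp445 (-0.92), Zkscan7 (-1.34), Lars2 (-1.43), Xcr1 (-0.042), Ccr1 (-0.17), Ccr3 (-0.90), 2010315B03Rik (-0.97), LOC108167320 (-0.84), Ppp2r3d (-1.09), Ccr8 (-0.20), Adam17 (-1.04), Bbs4 (-1.18) and Synj2 (-0.020). This scaling lowers every gene by the rise of the markers, and whether it or TMM is nearer to the change per ILC2 was not tested. The differences between cell types given above used TMM, and the ILC2 change in each would be lower under the marker scaling.

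The replicate numbers share only a label: same-numbered libraries of a cell type deviated together with a correlation of 0.0502 in CD8 T cells and 0.148 in ILC2s. With the replicate number as a block, 9732 genes were called in CD8 T cells and 11056 in ILC2s, against 9711 and 11090 without it.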
